A study of Mus musculus with 4 samples.

Results

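Wnt7a and Lmx1b are the ligand and the transcription factor of the dorsal limb bud, and their surroundings were examined in 2 lists of accessible regions from mouse limb cells. The regions are all ATAC-seq peaks that overlap the 100 kb on either side of each start site, which is chr6:91411353 for Wnt7a and chr2:33641208 for Lmx1b in mm10. They number 75 of 136769 peaks on chromosomes 1 to 19, X and Y of both lists. The list of the earlier embryonic stage, E10.5, contributed 15 peaks around Wnt7a and 47 around Lmx1b, out of 99356. That of the later stage, E11.5, contributed 2 and 11, out of 37413.

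The cells were pooled fore- and hindlimb cells of wild-type embryos, with 2 replicates at each stage, fixed with paraformaldehyde before the Tn5 transposase marked open DNA. No mutant, drug or transgene was involved, and the titles give the earlier stage as E105 while the protocol names it E10. Both replicates of a stage are merged in its list, so no value below has a replicate error, no test between stages could be made, and the depth behind each list is unknown. The E10.5 list is the longer by far, and 32.3% of its peaks overlapped an E11.5 peak by at least 1 bp, against 91.8% in the other direction. All differences below are differences between these lists.

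As background, Wnt7a is a secreted Wnt ligand made by the dorsal ectoderm of the limb bud. It switches on Lmx1b, a LIM homeodomain transcription factor, in the mesenchyme beneath, and Lmx1b directs dorsal structures such as dorsal muscles, tendons and nails. En1, the homeobox factor at the centre of the study, keeps Wnt7a out of the ventral ectoderm. Enhancers far upstream of Lmx1b that its own protein binds have been described in the limb. Their coordinates were not used here.

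The bases just upstream of 3 start sites are shown because the accessible promoters of these genes differ between the lists. Wnt7a had a promoter peak at E10.5 only, Chchd4, in the same window, had one in both lists, and Lmx1b had one that ranked far lower at E11.5. The sequences are RefSeq's for GRCm38.p6, the assembly of mm10, read 5′ to 3′ on the minus strand, the strand of all 3 genes. They cover chr6:91411354-91411603, chr6:91473424-91473673 and chr2:33641209-33641348. Capitals mark the GC box GGGCGG, the site of SP and KLF factors, on either strand.
Wnt7a: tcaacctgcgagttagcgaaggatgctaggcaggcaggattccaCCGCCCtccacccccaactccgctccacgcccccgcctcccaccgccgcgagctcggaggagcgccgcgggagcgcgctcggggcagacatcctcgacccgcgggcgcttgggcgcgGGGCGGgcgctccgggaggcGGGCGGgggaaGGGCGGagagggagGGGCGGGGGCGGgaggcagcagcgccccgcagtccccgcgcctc
Chchd4: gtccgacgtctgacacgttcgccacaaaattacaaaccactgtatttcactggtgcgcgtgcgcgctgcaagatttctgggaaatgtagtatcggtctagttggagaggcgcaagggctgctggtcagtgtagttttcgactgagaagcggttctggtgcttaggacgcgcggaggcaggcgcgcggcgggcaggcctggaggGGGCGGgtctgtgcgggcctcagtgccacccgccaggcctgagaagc
Lmx1b: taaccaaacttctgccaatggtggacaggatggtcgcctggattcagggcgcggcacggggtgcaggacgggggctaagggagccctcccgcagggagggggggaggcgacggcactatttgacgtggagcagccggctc

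The 250 bases upstream of Wnt7a were 77.6% G or C and held 34 CpG dinucleotides, above 96% of 21262 protein-coding promoters in both measures. The medians over those promoters were 55.6% and 10 CpG. Wnt7a held 6 GC boxes, a number reached by 1.21% of promoters, whereas at least 1 box was present in 42.6%. Chchd4 held 1, with 61.2% G or C and 22 CpG. The Lmx1b promoter, of which the 110 bases inside the longest annotated transcript are not shown, was 65.2% G or C with 19 CpG and held no GC box. Neither member held the homeodomain core TAATTA (4.30% of promoters) or its wider form TAATNA, which includes TAATTA (21.3%). Neither held the TCF/LEF words CTTTGAT (2.82%) or CTTTGTT (4.43%), the TATA box TATAAA (11.6%) or the E-box CACGTG (6.63%), all read on both strands. A missing word says only that its letters are not in this window.

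The peaks around Wnt7a formed 2 sets. One set lay over the starts of genes farther upstream and was in both lists. All the rest were in the E10.5 list only, among them the peak over the Wnt7a start, which also spanned a noncoding gene's start. Of 15 E10.5 peaks, 2 overlapped an E11.5 peak (13.3%, 95% Wilson interval 3.74 to 37.9%), against the 32.3% over the list. Intervals here cover counting error only and treat neighbouring peaks as independent. Both E11.5 peaks of the window lay whole inside those E10.5 peaks. E10.5 peaks covered 11.8 kb of the window and E11.5 peaks 3.09 kb. Among the windows of 21531 protein-coding genes, Wnt7a stood at percentile 70.3 by number of E10.5 peaks and at percentile 29.1 by number of E11.5 peaks. Of the 15 E10.5 peaks, 11 lay below the top 3 deciles of signal and 0 of them overlapped. Of all such peaks of the list 13% did. Of the 4 Wnt7a peaks in the top 3 deciles, 2 overlapped. Within 200 kb on either side of Wnt7a, 8 of 32 E10.5 peaks (25%) overlapped.

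The Wnt7a promoter peak, at chr6:91410531-91412205, was 1675 bp wide and spanned the start of Wnt7a and that of the opposite-strand long noncoding RNA gene Gm30437. Its signal, the peak caller's total over the width of the peak, was 3299.5. That is rank 16692 of the E10.5 list, or percentile 83.2, where 100 is the highest. Its −log10 p was 7.72 and its summit lay 0.316 kb upstream of the start site. No E11.5 peak overlapped it, and the nearest began 28.3 kb away. Of 14263 protein-coding genes with a promoter peak at E10.5 (a peak within 1 kb of the start), 10.1% lacked one at E11.5. Among the 1313 whose E10.5 promoter peak lay within 2 percentiles of that of Wnt7a by signal, 3.2% did. By −log10 p and by signal per bp the Wnt7a promoter peak stood lower, at percentiles 75.7 and 67.4. Genes were not matched by those measures. The E10.5 peak still counted when promoters were defined within 500 bp or over the start site itself, with −log10 p of at least 5, and with the E10.5 list reduced to the length of the E11.5 list. None of these settings could add an E11.5 peak, so they do not bear on the absence there.

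Weaker E10.5 peaks flanked the promoter. One lay inside Wnt7a at chr6:91409207-91410172, with its summit 1.78 kb downstream of the start, a signal of 819.6 and percentile 49.2. Another lay 3.74 kb upstream, with a signal of 409.5, at chr6:91414790-91415192. The gene body held 1 further peak, 38.6 kb downstream at chr6:91372528-91372925 (signal 390.8). In total E10.5 peaks covered 4.62% of the Wnt7a gene body and E11.5 peaks 0%.

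Beyond the 3′ end of Wnt7a, 7 E10.5 peaks and no E11.5 peak lay between genes. One stood out from the rest. It lay 71.6 kb downstream of the start site at chr6:91339072-91340170, had a signal of 2163 (percentile 75), a −log10 p of 7.16 and a signal per bp of 1.97, the same as that of the promoter peak. The other 6 had signals of at most 539. In the E10.5 list 54% of peaks of the same decile (the eighth of 10, counted upward by signal) overlapped an E11.5 peak. The nearest E11.5 peak to this one was 52.1 kb away.

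The E11.5 list held 2 peaks in the window, both at other genes. The stronger lay over the divergent starts of Chchd4, which encodes a mitochondrial import factor, and of Tmem43, a membrane protein of the nuclear envelope. The E10.5 peak, chr6:91472267-91474968, measured 10293 (percentile 98.3) and the E11.5 peak, chr6:91472618-91474630, measured 6139 (percentile 95.8), with summits 2 bp apart. The other lay over the divergent starts of 2 long noncoding RNA genes, 4930471M09Rik and 1810044D09Rik, 29.5 kb upstream of Wnt7a. There the signals were 2364 in the E10.5 list (chr6:91440503-91441629, percentile 76.9) and 2079.8 in the E11.5 list (chr6:91440522-91441597, percentile 73.2). At E10.5 this second peak had a lower signal than the Wnt7a promoter peak and was still listed at E11.5. Its −log10 p (8.75 against 7.72) and signal per bp (2.10 against 1.97) were higher than those of the promoter peak. The last 2 E10.5 peaks, inside Xpc 96.9 and 98.2 kb upstream, had signals of 270.5 and 774.8 and no overlap.

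**Figure D1:**
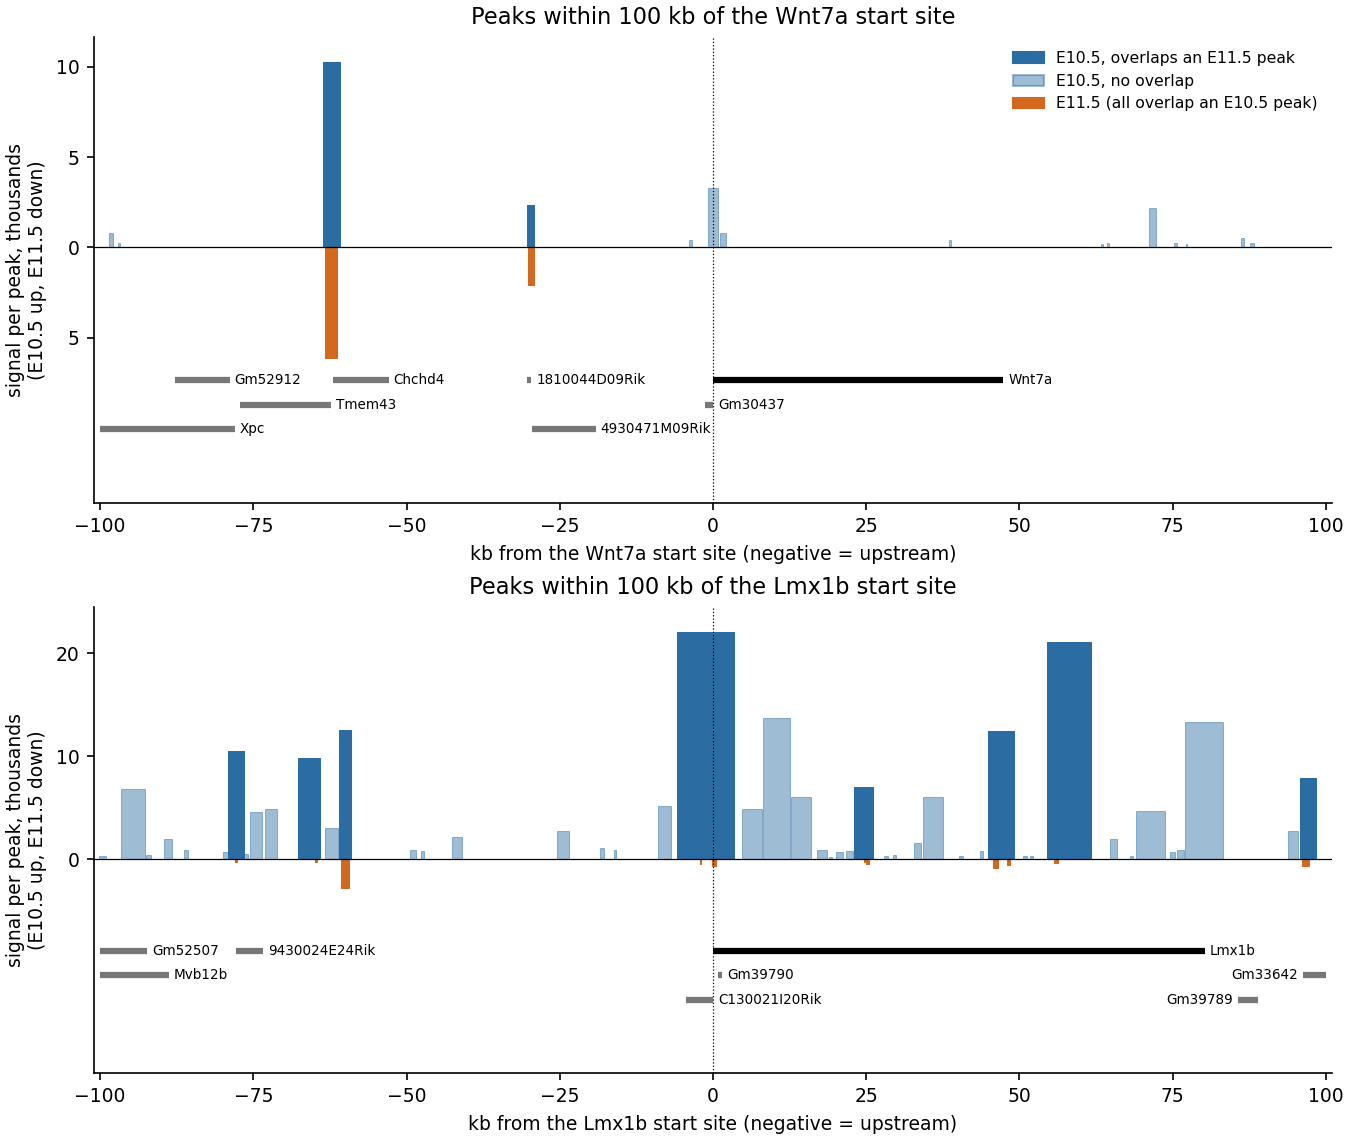
Peaks within 100 kb of the Wnt7a start site (top) and the Lmx1b start site (bottom), drawn to scale along the distance in kb, with negative values upstream. Bar height is the signal per peak divided by 1000, upward for E10.5 and downward for E11.5, pale bars are E10.5 peaks without an E11.5 overlap, and the lines below are annotated genes. Around Wnt7a only the peaks 29.5 and 62.2 kb upstream have a downward bar, and around Lmx1b the E11.5 bars are short and narrow, the tallest being the one 59.8 kb upstream.

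Lmx1b lay in one of the most densely covered windows of the E10.5 list. Its 47 E10.5 peaks covered 96.6 kb, or 48.3% of the window, where the median over all gene windows was 8.56 kb. By covered length 10 of 21531 protein-coding gene windows exceeded it, and by number of peaks 32 did, counting windows that overlap one another. The 11 E11.5 peaks covered 6.61 kb, percentile 74.0 of E11.5 windows, whose median was 3.94 kb. All 11 lay whole inside an E10.5 peak. They fell in 8 E10.5 peaks, 3 of which held 2 each, so 8 of 47 E10.5 peaks overlapped (17%, interval 8.89 to 30.1%), again beside 32.3% for the list. Among the 11439 windows with at least 10 E10.5 peaks, the median share was 40%, Lmx1b stood at percentile 8.48 and Wnt7a at percentile 5.0.

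**Figure D2:**
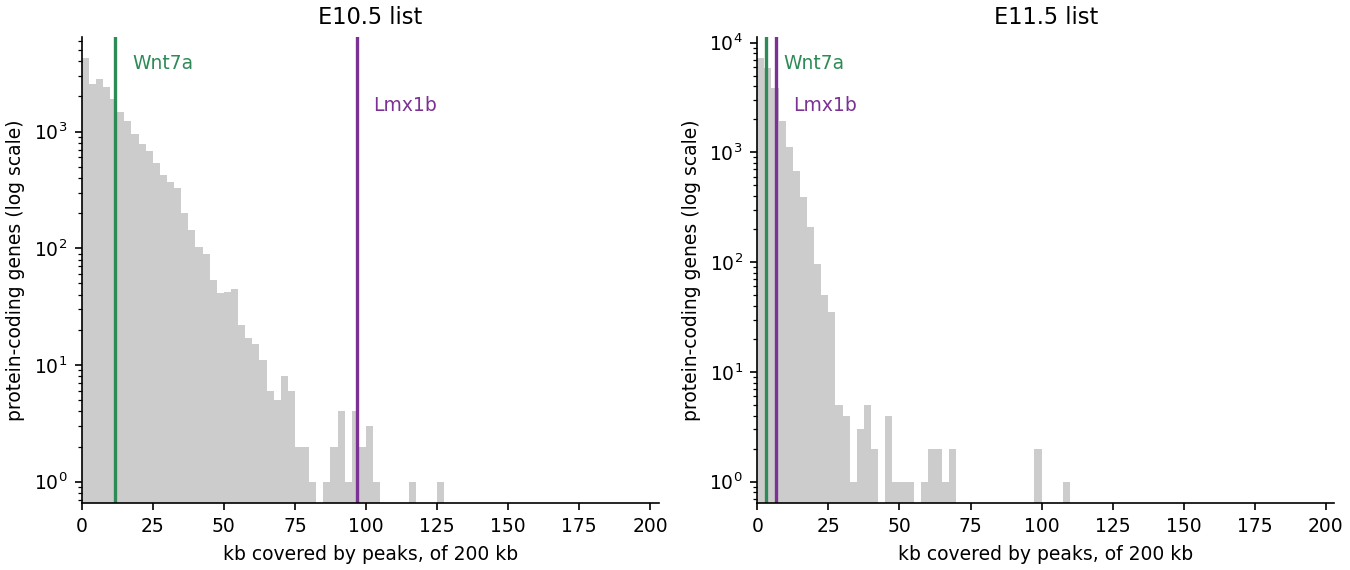
Length covered by peaks within 100 kb of the start site for all protein-coding genes, in kb of 200 kb, in the E10.5 list (left) and the E11.5 list (right), with the number of genes on a log scale. The lines mark Wnt7a at 11.8 and 3.09 kb and Lmx1b at 96.6 and 6.61 kb, so that Lmx1b lies in the far tail of the E10.5 list and within the bulk of the E11.5 list.

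The E10.5 peaks around Lmx1b were wide. Their median width was 1348 bp, against 624 bp for the whole list, and 12 were at least 3 kb wide. Within the gene body, from chr2:33560965 to 33641208, E10.5 peaks covered 65.1% of the sequence. Of 9907 protein-coding gene bodies of at least 20 kb, 6 were covered more fully, and the median was 3.32%. E11.5 peaks covered 3.79% of the Lmx1b gene body, with a median of 1.61% over those genes. Adjacent peaks were close together, and merging peaks of a list less than 1 kb apart, an alternative chosen after seeing the data, left 24 E10.5 and 10 E11.5 peaks. Of those 24, 7 overlapped (29.2%, interval 14.9 to 49.2%), a higher share than before merging. The share over the whole merged list was not computed.

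The Lmx1b promoter peak at E10.5, chr2:33637843-33647014, was 9172 bp wide, had a signal of 22123 and ranked 91 in its list, at percentile 99.9. It also spanned the starts of the long noncoding RNA genes C130021I20Rik and Gm39790. At E11.5 the same interval held 2 narrow peaks. The first, at chr2:33640759-33641299, covered the start site with a width of 541 bp, a signal of 632.8, a −log10 p of 4.84 and percentile 46.4. Its summit lay 4 bp from the start site in RefSeq's promoter table, which is 110 bp inside the outer end of the gene. The second, at chr2:33643113-33643408, had a signal of 446.0 and a summit 15 bp from the E10.5 summit, about 2 kb upstream of the start. Of 752 genes with an E10.5 promoter peak in the top percent of signal, 3.59% had an E11.5 promoter peak below the median of its list or none. By −log10 p and by signal per bp the E10.5 promoter peak of Lmx1b stood lower, at percentiles 92.7 and 78.0. Genes were not matched by those measures. With −log10 p of at least 5 the Lmx1b promoter peak was absent from the E11.5 list.

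Upstream of Lmx1b, the peak with the highest signal per bp of both windows was at chr2:33700261-33702206, 59.8 kb from the start site and between genes. Its signal at E10.5 was 12614, its −log10 p 14.2 and its signal per bp 6.48, at percentile 99.8 of the list. The E11.5 peak there, chr2:33700522-33701932, had a signal of 2749.5, the highest around Lmx1b at E11.5, with a −log10 p of 6.15 and percentile 79.2. The summits were 7 bp apart. It was the single E11.5 peak around Lmx1b that had a −log10 p of at least 5, and it had the widest overlap, 72.5% of the E10.5 peak.

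Further upstream, a peak at chr2:33705349-33708982 had a signal of 9888 at E10.5 and held a 444 bp E11.5 peak of signal 279.3, whose summit was 2.11 kb from the E10.5 summit. The most distant of these peaks, chr2:33717793-33720275, lay over the start of the long noncoding RNA gene 9430024E24Rik, 77.8 kb from Lmx1b. The E10.5 signal there was 10533 and that of the E11.5 partner 271.3, with summits 18 bp apart. All 3 upstream pairs thus had E10.5 percentiles of at least 98, and the E11.5 percentiles were 79.2, 16.0 and 14.7.

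Inside the gene, 3 E10.5 peaks overlapped E11.5 peaks. The widest, chr2:33579456-33586673, was 7218 bp wide with a signal of 21131, rank 118, and its E11.5 partner was 674 bp wide with a signal of 352.3. The peak at chr2:33592174-33596270 had a signal of 12504 and 2 E11.5 partners of 524.8 and 799.3. The peak at chr2:33615122-33618232 had a signal of 7048 and 2 partners of 413.9 and 202.8. Downstream of the gene, chr2:33542773-33545504, across one end of the long noncoding RNA gene Gm33642, had a signal of 7934 and a partner of 677.0.

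**Figure D3:**
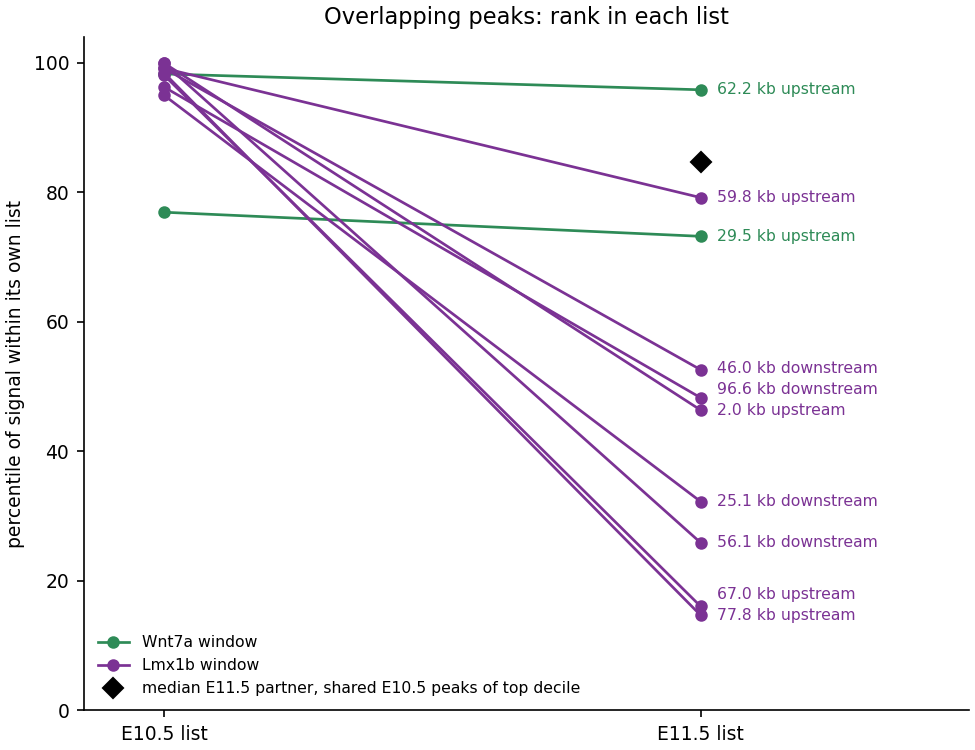
Percentile of signal within its own list for each E10.5 peak that overlaps the E11.5 list (left) and for its strongest E11.5 partner (right), with the distance of the E10.5 summit from the start site at the right. The Wnt7a window's 2 lines are nearly level, the 8 lines of the Lmx1b window fall to between 14.7 and 79.2, and the diamond marks the median partner (84.7) of all shared E10.5 peaks of the top decile.

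The partners of the Lmx1b peaks were low in their list for E10.5 peaks of this rank by signal. All 8 shared E10.5 peaks were in the top decile by signal, and the strongest partner of 6 of them lay below the E11.5 median. Over the 9604 shared E10.5 peaks of that decile, 9.67% had such a partner, and the median partner stood at percentile 84.7, against 39.3 around Lmx1b. The overlap took up a median of 16.2% of the E10.5 width, against 73.0% for that decile. The ratio of E11.5 to E10.5 signal had a median of 0.0437, against 0.472. Because signal is a total over the width, the narrower E11.5 peaks have a part in this ratio. Of these 8 E10.5 peaks, 3 were in the highest decile by −log10 p and 2 by signal per bp. Partners of peaks matched by those measures were not compared. By signal per bp the 8 E10.5 peaks measured 2.27 to 6.48 and their strongest partners 0.523 to 1.95, and every partner was lower than its E10.5 peak. The promoter pair (2.41 and 1.17) was by ratio the closest of the 8, and the widest pair inside the gene, 2.93 and 0.523, the farthest apart. The 2 pairs around Wnt7a measured 2.10 and 1.93, and 3.81 and 3.05.

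The remaining strong E10.5 peaks around Lmx1b had no E11.5 counterpart. In the top 3 deciles of signal there were 24, of which 16 had no overlap, with signals from 2009 to 13734. In the highest decile 8 of 14 overlapped, where 96.7% of all E10.5 peaks of that decile did. In the next 2 deciles none of 5 and none of 5 overlapped, where 81.3% and 54% did. The 23 peaks of lower deciles, with signals from 221 to 1557, had no overlap either, where 13% of the list's did. The share around Lmx1b thus lay below that of the list in the highest decile too, and the 2 strongest peaks without overlap lay inside the gene and over its 3′ end.

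The strongest of these was chr2:33628640-33633098 (signal 13734, percentile 99.4), 9.37 kb downstream of the start site in Lmx1b. The next, chr2:33557982-33564198 (13388, percentile 99.3), spanned the 3′ end of the gene. Then came chr2:33733803-33737753 (6796) in Mvb12b, the upstream neighbour, which encodes an endosomal sorting subunit. Inside Lmx1b, chr2:33625206-33628481 had a signal of 6092 and chr2:33603763-33606892 one of 6077. Just upstream of the promoter peak, chr2:33648139-33650139 reached 5192 with a −log10 p of 10.8.

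Of the other 10 peaks of this kind, 3 lay inside Lmx1b, at chr2:33633214-33636485 (4869), chr2:33567385-33572211 (4668) and chr2:33575248-33576399 (2020.4). Upstream there were 6. Among them, chr2:33712262-33714262 (4876) and chr2:33714739-33716771 (4630.4) lay beside and inside 9430024E24Rik, and chr2:33702321-33704520 (3042) lay 0.389 kb from the 59.8 kb E11.5 peak. The others were chr2:33664666-33666639 (2723), chr2:33682208-33683867 (2202) and, across one end of Mvb12b, chr2:33729398-33730745 (2009). The last, chr2:33545755-33547443 (2731), lay downstream of the gene. The distance from these 16 peaks to the nearest E11.5 peak ranged from 0.389 kb to 21.3 kb, and it was 12.9 kb for the peak over the 3′ end of Lmx1b.

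**Figure D4:**
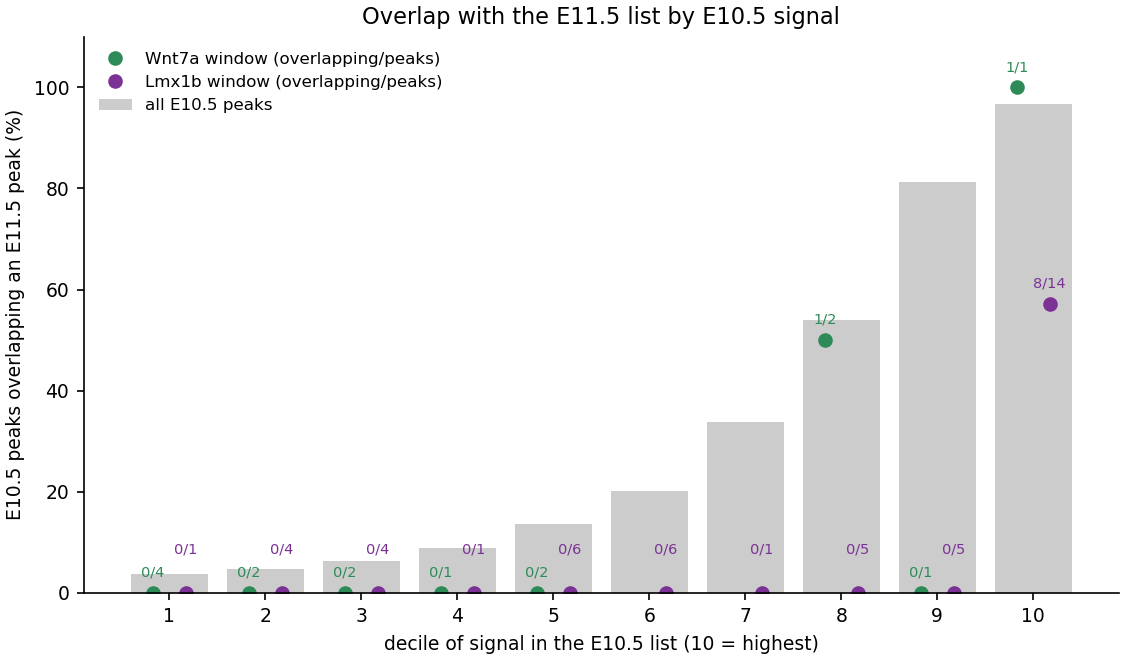
Percentage of E10.5 peaks that overlap an E11.5 peak in each decile of E10.5 signal (grey bars, all peaks), with the peaks of the Wnt7a window (green) and the Lmx1b window (purple) as points and their counts as overlapping/peaks. In the highest decile the Lmx1b point stands at 8 of 14 beside a grey bar of 96.7%, and its points in deciles 8 and 9 stand at 0 of 5.

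The measure used for ranking bears on this comparison, since wide peaks gain total signal. By −log10 p, 3 of 4 Lmx1b peaks of the highest decile overlapped (list 99%), 4 of 9 of the next (83%) and 1 of 7 of the eighth (55.5%). By signal per bp, 2 of 2 of the highest decile overlapped (95.9%), 4 of 6 of the next (77.8%) and 2 of 7 of the eighth (52.9%). Of peaks at least 2 kb wide, 7 of 18 around Lmx1b overlapped, against 87.3% of all such E10.5 peaks, and of those at least 3 kb wide 5 of 12 did, against 91%. With the E10.5 list reduced by signal to the length of the E11.5 list, 8 of 25 Lmx1b peaks and 2 of 4 Wnt7a peaks overlapped, against 68.9%. Reduced by −log10 p, 8 of 23 and 2 of 4 did, against 70.2%. With −log10 p of at least 5 required in both lists, 1 of 31 Lmx1b peaks and 2 of 6 Wnt7a peaks (33.3%) overlapped, against 32.4%. The Wnt7a share, lower than that of the list without this threshold, was thus close to it here.

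Promoters most like those of the members were found by the summed difference in percentile over the 2 lists. For Wnt7a they were H2-Oa, Ascl4 and Chad, each with an E10.5 promoter peak between percentile 83.1 and 83.3 and none at E11.5, at distances of 0.0624, 0.0694 and 0.116. For Lmx1b they included Zfp503 (percentiles 99.8 and 45) and Col26a1 (97.7 and 46.9), at distances of 1.42 and 2.79. Around Zfp503 and Col26a1 there were 19 and 27 E10.5 peaks within 100 kb, fewer than the 47 around Lmx1b.

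Other genes of the dorso-ventral system were read at their promoters. Over all protein-coding genes 66.2% had a promoter peak at E10.5 and 59.9% at E11.5, with 59.5% in both lists, 6.7% at E10.5 only, 0.385% at E11.5 only and 33.4% in neither. Promoter peaks rank high in general, with a median percentile of 89.4 at E10.5 and 81.7 at E11.5 over the genes that have one. The Wnt7a promoter peak, at 83.2, thus stood below the typical E10.5 promoter peak, and that of Lmx1b, at 99.9 and 46.4, above and then below the typical one. Of 14 genes of limb dorso-ventral patterning, all 14 had one at E10.5, and 11 of them also had one in the later list. The 3 without were Wnt7a and the apical ridge growth factors Fgf8 (E10.5 percentile 79.1) and Fgf4 (16.9). With the E10.5 list reduced to equal length, the counts were 12 and 11 by signal, and 11 and 11 by −log10 p. They were 12 and 7 with −log10 p of at least 5 in both lists. A shorter E10.5 list cannot hold more of these promoters, and the share over all genes was not computed at these settings. En1 had percentiles of 76.3 and 60.4. Epha4, a guidance receptor regulated by Lmx1b in the limb, stood at 99.6 and 87.0, and Ntn1, a guidance cue, at 92.1 and 63.8. Bmpr1a, the BMP receptor upstream of En1, stood at 92.1 and 93.

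Genes for sending and receiving Wnt signals, listed with the inhibitors Dkk1, Sfrp1, Sfrp2 and Notum, were in both lists. All 20 had a promoter peak at each stage, among them Wls, needed for Wnt secretion (98.9 and 99), Fzd5, a receptor (99.2 and 98.9), and Reck, a co-receptor that acts with Wnt7 ligands (95.8 and 84.5). Lrp5, a co-receptor, had the lowest E11.5 percentile of them, 98.8 and 43.7. Of 16 effectors and response genes, 15 and 14 had a promoter peak. Axin2, a feedback target, had one at E10.5 only (59.1) and Axin1 in neither list. Genes were read at their outer annotated end, and alternative starts were not used.

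Promoters of the ligands themselves were counted in the same way, beside 66.2% at E10.5 and 59.9% at E11.5 over all protein-coding genes. Of 18 other Wnt genes, 16 had a promoter peak at E10.5 and 7 had one in the later list. With the E10.5 list reduced to the length of the E11.5 list, 12 ligands had an E10.5 promoter peak by signal and 9 by −log10 p, beside 7 at E11.5, and with −log10 p of at least 5 in both lists the counts were 9 and 6. Shortening the E10.5 list could not raise its count or change the 7, so those settings could not widen the contrast between 16 and 7. The share over all genes was not computed at these settings. In the full lists, the ligands at E10.5 only were Wnt1, Wnt3, Wnt3a, Wnt7b, Wnt8a, Wnt9b, Wnt10a, Wnt10b and Wnt11, while Wnt6 and Wnt8b had none in either list. Wnt3 and Wnt9b were assigned the same peak. Wnt7b, the closest relative of Wnt7a, stood at percentile 94.3, and Wnt11 at 99.9, the highest E10.5 percentile of the ligands absent at E11.5. Wnt5a, a mesenchymal ligand, was in both lists at 99.96 and 72.1.

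All 15 LIM homeodomain genes and cofactors had an E10.5 promoter peak and 11 had one at E11.5, beside 66.2% and 59.9% over all genes. With the E10.5 list reduced to equal length, the counts were 13 and 11 by signal, and 10 and 11 by −log10 p. They were 13 and 8 with −log10 p of at least 5 in both lists. For these settings the share over all genes was not computed. In the full lists the genes divided as follows. Lhx4, Lhx5, Isl2 and Ldb1, the cofactor that LIM homeodomain proteins bind, had one at E10.5 only, Ldb1 at percentile 98.8. The paralogue Lmx1a stood at 86.2 and 57.5.

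**Figure D5:**
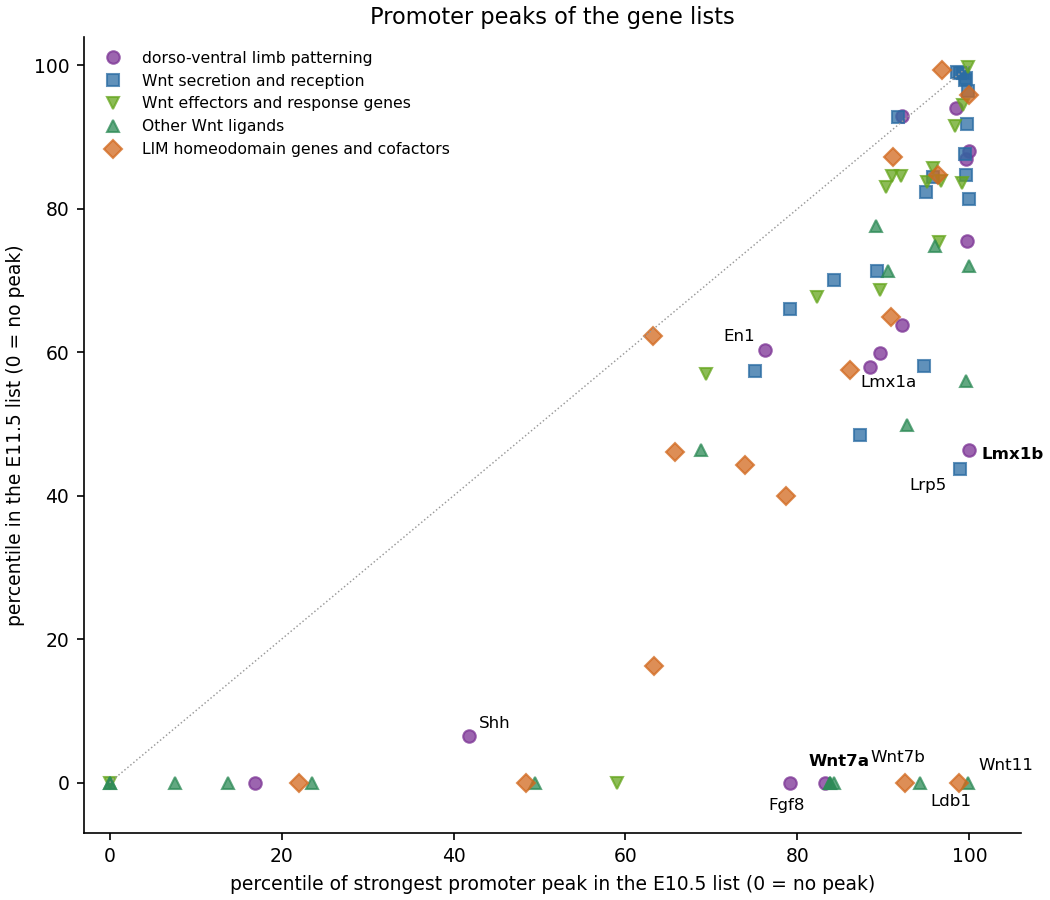
Percentile of the strongest promoter peak (within 1 kb of the start site) in the E10.5 list and in the E11.5 list for the genes of 5 lists, where 0 means no peak. Wnt7a lies on the bottom edge at 83.2 with Fgf8, Wnt7b, Wnt11 and Ldb1, and Lmx1b lies at 99.9 and 46.4, while the secretion and reception genes have medians of 98.7 and 84.6, beside 89.4 and 81.7 over all genes with a promoter peak.

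Wnt7a is made by ectoderm and Lmx1b by mesenchyme, so markers of both were read in the same way. Of 12 limb mesenchyme markers, 12 had a promoter peak at E10.5 and 11 at E11.5, all but Tbx5, and their promoter signals summed to 127755 and 33822. Of 14 surface ectoderm markers, 12 and 6 had one, and their signals summed to 17452 and 3571. These sums are not scaled for depth. Over all shared E10.5 peaks the median ratio of E11.5 to E10.5 signal was 0.395, so lower E11.5 signal was also found outside the markers. That ratio is per pair of peaks and leaves out E10.5 peaks without overlap, whereas the sums include genes with no E11.5 peak. Whether marker promoters differed more than others was not tested. With the E10.5 list reduced to equal length the ectoderm counts were 7 and 6 by signal, and 2 and 6 by −log10 p, so the order of the lists turned in the latter. With −log10 p of at least 5 in both lists they were 8 and 2. At these settings the share over all genes was not computed. In the full lists Trp63 and Cldn6 had none at either stage, and Krt5, Krt14, Tfap2a, Grhl2, Cldn7 and Rab25 had none at E11.5. In pooled tissue, fewer cells of a type and less accessible DNA per cell cannot be told apart, and the part of the ectoderm markers in the Wnt7a result was not tested.

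Markers of other cells that limb tissue can hold were counted as well, beside 66.2% at E10.5 and 59.9% at E11.5 over all protein-coding genes. Of 8 blood markers 3 and 4 had a promoter peak, with Gata1, Spi1, Ptprc and Alas2 in neither list and Hbb-bt at E11.5 only. Of 7 endothelial markers 5 and 3 had one, with Cdh5 and Tie1 at E10.5 only and Pecam1 and Tek in neither. With the E10.5 list reduced to equal length, by either measure, the endothelial counts were 2 and 3, and with −log10 p of at least 5 they were 2 and 2. Of 6 muscle precursor markers 6 and 3 had one, with Pax3, Pax7 and Myf5 at E10.5 only. With the E10.5 list reduced, the muscle precursor counts were 4 and 3 by signal and 3 and 3 by −log10 p. The blood counts were 1 and 4 by either measure. With −log10 p of at least 5, muscle precursor markers numbered 4 and 2 and blood markers 2 and 3. For none of these settings was the share over all genes computed.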

How the data were processed

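ATAC-seq peak lists of limb cells were analysed, 1 per stage, each joining 2 replicates named in its header. Per the file headers the build is mm10. Per the submitters' processing notes, cutadapt, Bowtie2, SAMtools, deepTools and Genrich were used, with roles and versions not given. How replicates were combined, and any Tn5 shift, is not given in the sources used here. The authors deposited a signal value (a total over the peak, never below 200), a −log10 p, and a score, which equals signal per bp times 1000, capped. The deposited q-value column holds a placeholder in every row.

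Peaks were ranked by signal within their list and overlapped (at least 1 bp) with Python 3.11.15. The overlap code was checked on simulated lists. Start sites are outer gene ends in RefSeq GRCm38.p6. Strand came from RefSeq promoters for 17491 protein-coding genes and from GENCODE M1 symbols for 4040. Exons and untranslated regions were not used. Depth per sample is unknown, and no test was made.

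The members and lists were chosen with earlier results of these data known. Peaks named are those within 1 kb of a start site, the 5 strongest per list and window, and E10.5 peaks without overlap in the top 3 deciles. Genes named have a start in a window, a list promoter peak in 1 list or neither, or the 3 nearest promoter percentiles. Other peaks and genes named, among them the remaining shared peaks around Lmx1b and weak peaks around Wnt7a, were chosen after their values were seen. Some of these genes, and the lists that hold them, are not reported here. Alternatives changed the window, threshold, overlap rule, promoter distance and merging.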

Additional observations from a re-analysis of the deposited data

How the results depend on the processing

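No paired analysis was possible because the files hold no values per replicate, and leaving out a replicate was impossible too. Over 11 alternatives, 68 values of 16 main results stayed within 1.5 times for counts, within the 95% interval for shares, or equal for promoter peaks, and 28 did not. By construction, windows of 50 kb on either side held fewer peaks, 5 and 1 around Wnt7a and 23 and 6 around Lmx1b at E10.5 and E11.5. Windows of 200 kb held 32 and 9 around Wnt7a and 76 E10.5 peaks around Lmx1b. A −log10 p of at least 5 left 6 E10.5 peaks around Wnt7a, and 31 and 1 around Lmx1b. There 3.23% of Lmx1b E10.5 peaks were shared, the Lmx1b promoter had 0 peaks at E11.5, and 29 and 19 marker genes had a promoter peak in place of 46 and 31. With the E10.5 list reduced by signal, 4 Wnt7a and 25 Lmx1b peaks remained, 50% and 32% of them shared, and 29 marker genes. Reduced by −log10 p, there were 4 and 23 peaks, 50% and 34.8% shared, and 21 marker genes. Requiring 50% reciprocal overlap left 2.13% of E10.5 and 9.09% of E11.5 peaks shared around Lmx1b, and summits within 100 bp left 54.5% of E11.5 peaks. Merging peaks less than 1 kb apart, chosen after seeing the data, left 24 E10.5 peaks around Lmx1b, 29.2% of them shared. Depth is unknown and limits every count.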
